A study of Mus musculus with 20 samples.

Results

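The transcripts of 10 scavenger and clearance receptor genes, among 56748 genes in the count tables, were followed across 20 RNA-seq libraries of mouse macrophages. They were picked out of the tables by gene name, with no threshold on a measured value: Msr1, Marco, Cd36, Mrc1, Stab1, Scarb1, Cd163, Clec7a, Mertk and Axl. Each name occurred once in the tables, as a protein-coding gene. Genes with at least 10 counts over the libraries of an experiment were tested, which left 9 of the 10 in the iNOS experiment, all but Cd163, and 7 of the 10 in the Akr1a1 experiment, all but Marco, Cd163 and Mertk.

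The iNOS experiment held 12 libraries, 3 (A, B and C) in each of 4 groups: wildtype (WT) and iNOS KO cells, which lack inducible nitric oxide synthase, each left unstimulated or given LPS (50 ng/mL) and IFNγ (30 ng/mL) during 48 h. The labels name these cells bone marrow-derived macrophages (BMDM), differentiated with M-CSF from WT or iNOS KO C57BL/6J mice of either sex aged 6 to 12 weeks, whereas the methods of the study describe this sequencing in a macrophage cell line, so they are called libraries labelled BMDM here. The methods also give another youngest age for the mice, name C57BL/6J as the WT and B6.129P2-Nos2tm1Lau/J as the iNOS KO strain, and state that marrow was pooled by genotype. The Akr1a1 experiment held 8 libraries of RAW264.7 cells, a mouse macrophage line, 2 (A and B) in each of 4 groups: WT and Akr1a1 KO cells, left unstimulated or given LPS (50 ng/mL) and IFNγ (10 ng/mL) during 48 h. The KO lines were made by CRISPR-Cas9 and grown from single sorted cells, and the methods call A and B independent clonal replicates. Stimulated cells of both experiments had the same agents and duration but different IFNγ doses, and levels are not tested across them. The titles of both unstimulated RAW264.7 B libraries say stimulated while their treatment field says unstimulated. They were grouped by the treatment field, and on the first principal component they lay at -109.2 and -104.5, beside their unstimulated A libraries at -116 and -102.9 and apart from the 4 stimulated libraries at 87.4 to 118.

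Scavenger receptors are surface proteins with which macrophages take up modified lipoproteins, microbes and cell debris. Class A receptors such as Msr1 and Marco bind polyanionic ligands including acetylated lipoprotein and bacterial surfaces, and class B receptors such as Cd36 and Scarb1 bind lipoproteins and lipids. Mrc1 (the mannose receptor) and Clec7a (Dectin-1) are C-type lectins that bind sugars. Stab1 clears modified lipoproteins and matrix proteins, and Cd163 takes up haptoglobin-bound haemoglobin. Mertk and Axl are receptor tyrosine kinases that recognise dying cells through bridging proteins such as Gas6.

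The 300 bases around the annotated start of each gene, from 250 bases before to 50 bases after it, were taken from RefSeq on build GRCm38.p6. The table held 8 of the 10 genes, all but Msr1 and Scarb1. In all, 7 motifs were searched on both strands, overlaps between motifs allowed: GAAANNGAA (ISRE-like), TTCNNNGAA (GAS-like), GGANTTTCC (kappaB-like), AGGAAGT (PU.1-like), TGANTCA (AP-1-like), AGGTCA (nuclear receptor core site) and TGCTGAC (MAF-like). Of 27025 promoter windows of this length they lay in 8.57%, 8.47%, 1.23%, 9.57%, 7.93%, 16% and 4.58%. The windows of Cd36 (chr5:17835847-17836146, minus strand), Mrc1 (chr2:14229164-14229463, plus strand) and Clec7a (chr6:129472730-129473029, minus strand, the first of 2 entries) are shown as the 2 windows with a motif match and, beside them, one without a match, that of the receptor with the largest ratio between mean levels of groups labelled BMDM among those over 1 CPM in each group. Other receptors with called differences are not shown. Capitals mark the 2 matches found in the 8 windows, the nuclear receptor core site at -228 of Cd36, which reads TGACCT on the strand shown, and the PU.1-like letters at -211 of Mrc1, which read ACTTCCT. The Clec7a window held none of these letters. GC content of the windows ranged from 38% at Cd163 to 66% at Mertk, with 43% at Cd36, 50.3% at Mrc1 and 42% at Clec7a.
Cd36: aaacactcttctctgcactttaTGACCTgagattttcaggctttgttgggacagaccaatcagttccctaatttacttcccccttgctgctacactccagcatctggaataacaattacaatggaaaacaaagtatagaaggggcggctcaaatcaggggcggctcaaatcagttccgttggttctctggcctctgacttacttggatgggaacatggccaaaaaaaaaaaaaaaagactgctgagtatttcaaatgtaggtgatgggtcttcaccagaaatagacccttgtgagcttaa
Mrc1: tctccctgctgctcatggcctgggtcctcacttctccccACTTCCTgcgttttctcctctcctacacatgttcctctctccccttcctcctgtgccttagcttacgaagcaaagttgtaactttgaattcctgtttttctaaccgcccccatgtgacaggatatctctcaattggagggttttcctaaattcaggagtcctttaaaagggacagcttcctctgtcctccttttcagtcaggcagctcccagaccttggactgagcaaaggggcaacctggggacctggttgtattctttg
Clec7a: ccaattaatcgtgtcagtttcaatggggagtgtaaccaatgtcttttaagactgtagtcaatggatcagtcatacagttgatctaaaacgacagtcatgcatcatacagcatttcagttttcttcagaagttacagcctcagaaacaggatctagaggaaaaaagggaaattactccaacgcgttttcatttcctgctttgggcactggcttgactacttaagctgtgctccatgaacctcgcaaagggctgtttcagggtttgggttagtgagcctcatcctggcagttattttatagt

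Library totals ran from 15072109 to 18878107 counts in the iNOS experiment and from 11876719 to 44583327 in the Akr1a1 experiment. Nos2, which encodes iNOS, had 1.25 to 1.53 CPM (counts scaled to the library size) in unstimulated WT libraries, 10370 to 11533 after stimulation, 0 counts in unstimulated iNOS KO libraries and 870.5 to 911.8 CPM in stimulated iNOS KO libraries. Akr1a1 in RAW264.7 had 426.9 to 674.7 CPM in the 4 WT libraries and 21.8 to 370.4 CPM in the 4 KO libraries. These counts cover whole genes and do not show whether the edited transcripts are functional. Library B of stimulated iNOS KO cells stood apart from its group, with a chi-square per degree of freedom of 28.8 and 36.8 against its mates. The other pairs of the iNOS experiment had 2.65 to 7.74. Values without library B are given for Cd36 and Clec7a and are not printed for the other receptors. The pairs of RAW264.7 libraries had 30 in unstimulated WT, 15.5 in unstimulated Akr1a1 KO, 68.6 in stimulated WT and 39.2 in stimulated Akr1a1 KO cells. The 10 macrophage markers examined (such as Adgre1, Csf1r and Cd68) all exceeded 1 CPM in every library labelled BMDM, and 9 or 10 of them did in each RAW264.7 library. The summed level of 6 osteoclast markers, 5 of which exceeded 1 CPM in unstimulated WT libraries, was 456.0 to 486.0 CPM in those libraries, 552.3 to 635.7 in stimulated WT, 480.8 to 505.9 in unstimulated iNOS KO and 366.7 to 408.6 in stimulated iNOS KO libraries, against at most 17.4 CPM in RAW264.7. The summed level of 6 neutrophil markers was at most 1.11 CPM in unstimulated libraries and, mostly through S100a8, 34.7 to 61.2 CPM in stimulated libraries labelled BMDM and 120.6 to 419.7 CPM in stimulated RAW264.7 libraries, while Ly6g had 0 counts in every library labelled BMDM. Dendritic, fibroblast, endothelial and lymphocyte lists reached at most 4.87, 16.4, 11.5 and 0.693 CPM in any library. The part of these cells in the results was not tested.

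Levels of the receptors were compared with each other per kilobase of gene length, as CPM per kb. Cd36 was the most abundant receptor transcript in all 4 groups labelled BMDM, with mean levels of 92.7 CPM per kb in unstimulated WT, 242.7 in stimulated WT, 80.7 in unstimulated iNOS KO and 450.3 in stimulated iNOS KO libraries. In unstimulated WT libraries Msr1 (35 CPM per kb), Scarb1 (17.5), Clec7a (5.55), Stab1 (3.5) and Mrc1 (0.628) followed, each above the next in every library. After stimulation Clec7a stood second in WT libraries, at 94 CPM per kb, above Msr1 at 89.3 with no overlap. In stimulated iNOS KO libraries Msr1 stood second, at 79.7 CPM per kb, and Clec7a (14.1) and Scarb1 (12) overlapped. Unstimulated iNOS KO libraries had overlapping Stab1 and Clec7a, both with a mean of 2.16 CPM per kb. Among the 10 genes' summed CPM per kb, Cd36 made up 53.8% to 57.7% in stimulated WT libraries and 73.9% to 82.4% in stimulated iNOS KO libraries, and Clec7a 20.2% to 22.4% against 2.39% to 2.82%. The sum itself was 148.9 to 165.2 CPM per kb in unstimulated WT, 422.1 to 453.6 in stimulated WT, 129.2 to 142.4 in unstimulated iNOS KO and 352.0 to 697.3 in stimulated iNOS KO libraries.

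**Figure D1:**
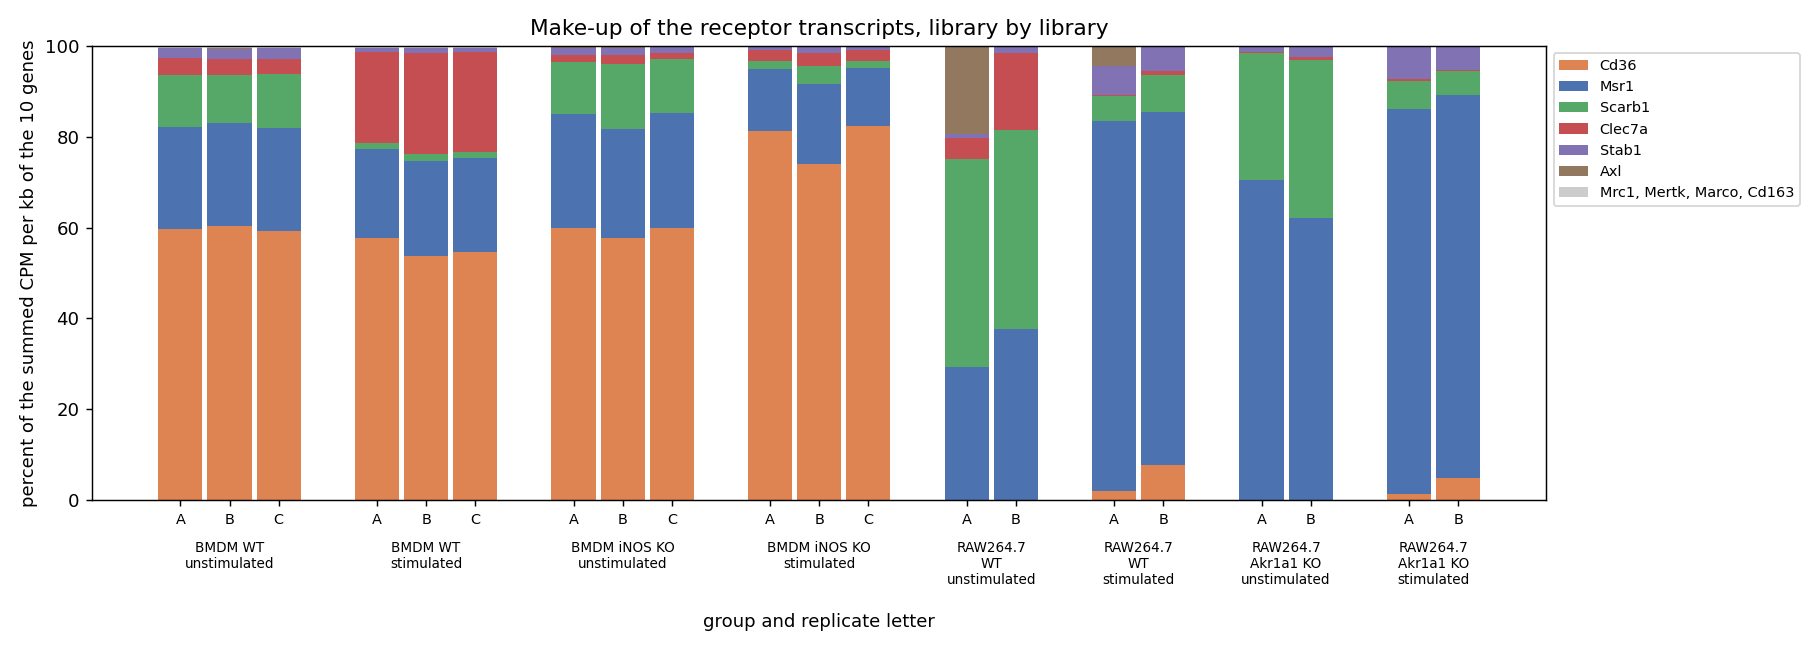
Share of each receptor in the summed CPM per kb of the 10 genes (y axis, percent) in the 20 libraries, 1 bar per library, ordered by group (x axis). Cd36 took 53.8% to 82.4% of the bar in the libraries labelled BMDM, Clec7a 20.2% to 22.4% in stimulated WT, and Msr1 77.7% to 84.9% in the stimulated RAW264.7 libraries.

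RAW264.7 cells had another order. In unstimulated WT libraries Scarb1 led at 23.4 CPM per kb, followed by Msr1 at 17.3, while Clec7a (5.52) and Axl (5.37) overlapped and Cd36 was at 0.00898. Msr1 led the other 3 groups, at 114.6 CPM per kb in stimulated WT, 24.2 in unstimulated Akr1a1 KO and 86.1 in stimulated Akr1a1 KO libraries. Scarb1 (9.28), Stab1 (8.65) and Cd36 (5.71) overlapped, each with the next, in stimulated WT libraries. Stab1 (6.29) and Scarb1 (5.77) overlapped in stimulated Akr1a1 KO libraries, above Cd36 at 3.33 CPM per kb.

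The first comparison asked how the receptors respond to LPS/IFNγ, the classical activation stimulus, in WT libraries labelled BMDM. Clec7a rose 16.9-fold, Mertk, Msr1 and Cd36 rose too, and Scarb1 and Mrc1 fell. Of 9 receptors tested, 6 were called (4 higher, 2 lower), where a call is an adjusted p under 0.05 by the quasi-likelihood test of edgeR with Benjamini-Hochberg adjustment over all genes. Of all 18691 genes tested 60.9% were called, so that the count of receptors is near the background. In bulk libraries, fewer cells of a type and less RNA per cell cannot be told apart.

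Msr1 had 216.1, 237.2 and 212.9 CPM in unstimulated WT libraries A, B and C and 565, 560.3 and 574.9 CPM after stimulation. All stimulated libraries lay above all unstimulated ones, and the log2 fold change was 1.35 (SE 0.104, edgeR adjusted p 4.8e-09). Marco had 0, 0 and 1 counts unstimulated and 1, 6 and 1 counts stimulated, at or near the 3 counts that a count of 0 allows, and no fold is given (edgeR adjusted p 0.0596). It was called without unstimulated library C (0.0418), stimulated library A (0.0464) or stimulated library C (0.0464). Cd36, which takes up oxidised lipoprotein and long-chain fatty acids, had 323.7, 358.5 and 316.6 CPM unstimulated and 939.2, 815.8 and 858.9 CPM stimulated. The groups did not overlap, with a log2 fold change of 1.39 (SE 0.189, edgeR adjusted p 5.9e-06). Scarb1, the receptor for high density lipoprotein, had 146.7, 149 and 150.2 CPM unstimulated and 48.6, 50.5 and 50 CPM stimulated. It was lower in every stimulated library, by -1.58 on the log2 scale (SE 0.0816, edgeR adjusted p 2.31e-11), so that the class B receptors Cd36 and Scarb1 changed in opposite directions.

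Clec7a, the receptor for fungal beta-glucan, had 14.9, 15.7 and 13.3 CPM unstimulated and 241.3, 249.3 and 253.1 CPM stimulated in WT libraries. These groups lay far apart relative to the spread within each, with a log2 fold change of 4.08 (SE 0.159, edgeR adjusted p 5.46e-13). Mrc1 was scarce, with 3.39, 4.56 and 4.05 CPM unstimulated and 3.74, 1.62 and 2.29 CPM stimulated. Its groups overlapped through stimulated library A, and the log2 fold change of -0.65 (SE 0.263, edgeR adjusted p 0.0425) was not called when unstimulated library B or C or stimulated library B or C was left out, with adjusted p up to 0.206, nor by DESeq2 (0.0834). Stab1 had 35.5, 37.1 and 35.5 CPM unstimulated and 39.2, 42.5 and 37.4 CPM stimulated, and its log2 difference of 0.14 did not pass the test (edgeR adjusted p 0.133).

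Of the receptors for dying cells, Mertk had 0.0498, 0.167 and 0.352 CPM (1, 3 and 6 counts) in unstimulated WT libraries and 5.12, 6.01 and 6.59 CPM stimulated. The groups did not overlap, and the log2 fold change was 4.96 (SE 0.374, edgeR adjusted p 3.52e-09), or 5.72 without unstimulated library C. Axl had 0.349, 0.556 and 0.646 CPM unstimulated and 0.485, 0.338 and 0.208 CPM stimulated, which overlapped (log2 difference -0.56, edgeR adjusted p 0.427). Cd163 had 1 count, in stimulated library C, and 0 in the other 11 libraries labelled BMDM, where a count of 0 allows 0.144 to 0.216 CPM.

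**Figure D2:**
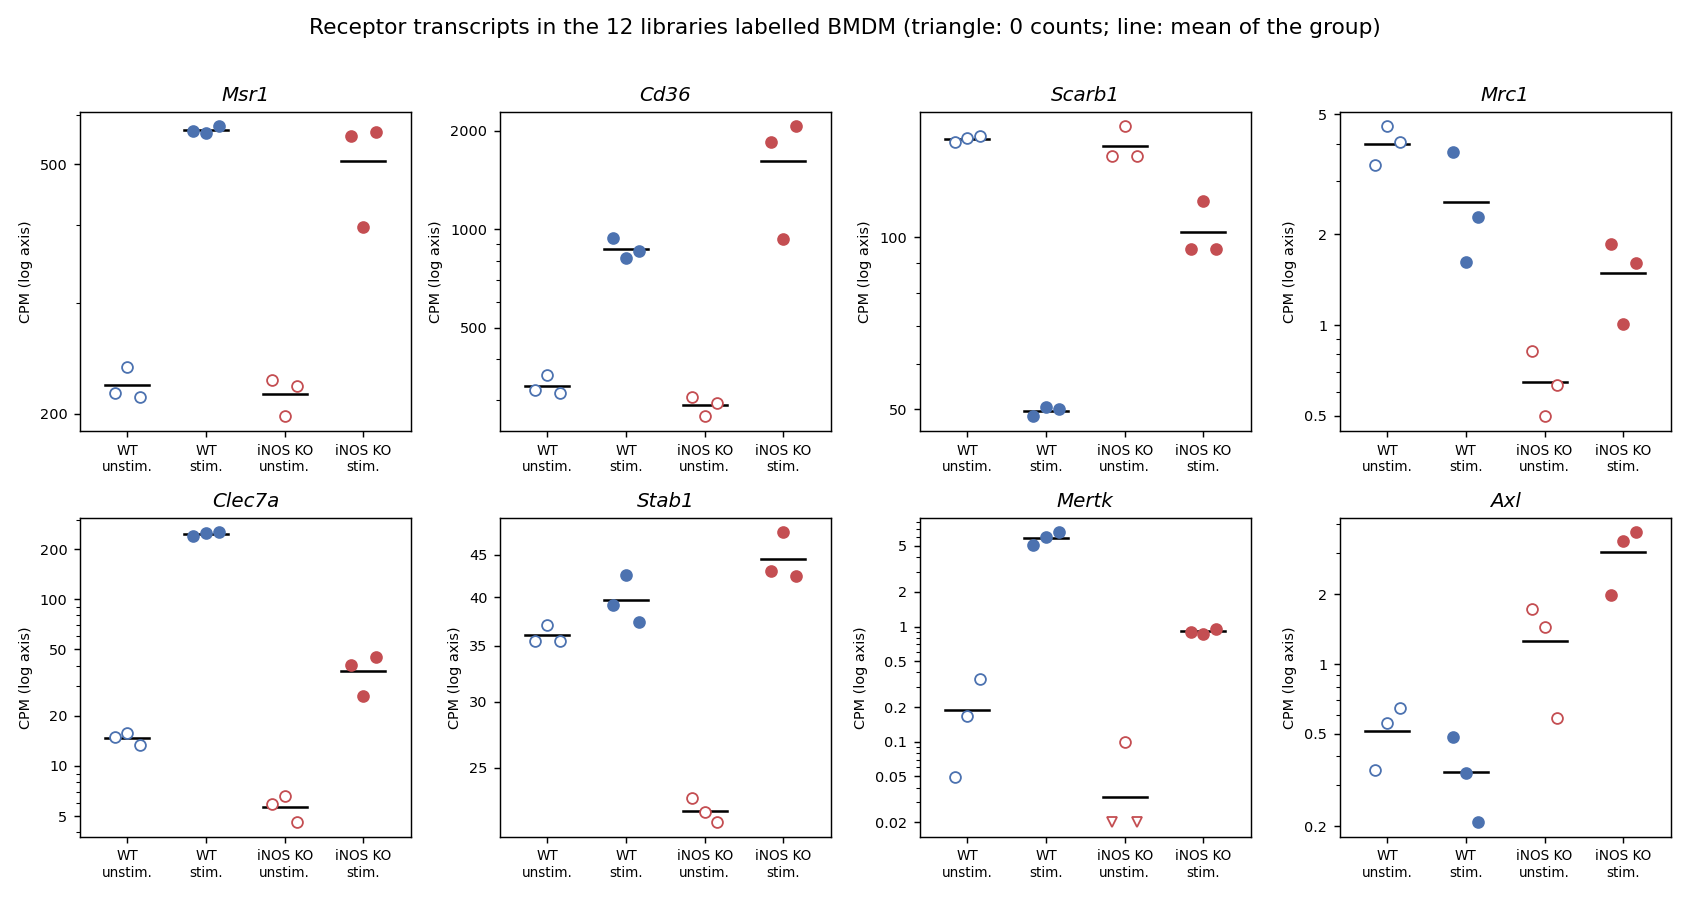
CPM (log axis) of 8 receptors in the 12 libraries labelled BMDM, 1 point per library, open for unstimulated and filled for stimulated, blue for WT and red for iNOS KO, with a line at the mean of each group and triangles for libraries with 0 counts. Stimulated Clec7a sat at 241.3 to 253.1 CPM in WT and 26.2 to 45.2 CPM in iNOS KO libraries, and stimulated Scarb1 at 48.6 to 50.5 and 95.2 to 115.6 CPM.

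The same stimulus was then examined without iNOS. All 9 receptors tested were called in iNOS KO libraries, 8 higher and 1, Scarb1, lower, where 51.9% of all genes were called. Cd36, Clec7a, Msr1, Stab1, Mrc1, Axl, Mertk and Marco rose. Marco and Mertk passed the filter on counts mostly through stimulated libraries, so the count over receptors tested is a description.

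Msr1 had 226.7, 197.9 and 221.4 CPM unstimulated and 555.6, 397.6 and 563.8 CPM stimulated in iNOS KO libraries. Library B of the stimulated group was the lowest of the 3 but above all unstimulated libraries (log2 fold change 1.23, SE 0.104, edgeR adjusted p 2.98e-08). Cd36 had 307, 267.8 and 294.8 CPM unstimulated and 1854, 933.3 and 2063 CPM stimulated. Again library B was the lowest, and the log2 fold change was 2.48 (SE 0.195, edgeR adjusted p 1.21e-08), or 2.76 without it. Scarb1 had 138.6, 156.3 and 138.8 CPM unstimulated and 95.4, 115.6 and 95.2 CPM stimulated, with no overlap and a log2 fold change of -0.50 (SE 0.0785, edgeR adjusted p 4.11e-05). Marco had 0 counts in all 3 unstimulated and 7, 2 and 3 counts in the stimulated libraries, at least 1.76-fold higher when 3 counts per library are taken as the limit of 0 (edgeR adjusted p 0.00646).

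Clec7a had 5.87, 6.62 and 4.59 CPM unstimulated and 40.1, 26.2 and 45.2 CPM stimulated in iNOS KO libraries. It was higher in every stimulated library, by 2.71 on the log2 scale (SE 0.17, edgeR adjusted p 6.06e-10), and by 2.91 without library B. Mrc1 had 0.819, 0.498 and 0.634 CPM unstimulated and 1.86, 1.01 and 1.61 CPM stimulated. The groups did not overlap, and the log2 fold change of 1.20 (SE 0.364, edgeR adjusted p 0.0107) was not called without stimulated library A (1.01, adjusted p 0.0592). Stab1 had 23, 22.1 and 21.5 CPM unstimulated and 43, 47.9 and 42.4 CPM stimulated, a log2 fold change of 1.00 (SE 0.0798, edgeR adjusted p 1.46e-08) with no overlap.

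Mertk had 0, 2 and 0 counts in unstimulated iNOS KO libraries and 0.9, 0.865 and 0.955 CPM after stimulation. The ratio of the group levels was 27.9, with a 95% interval of 7.26 to 237.9 that covers counting error only (edgeR adjusted p 2.38e-05). Axl had 1.73, 1.44 and 0.586 CPM unstimulated and 1.99, 3.39 and 3.7 CPM stimulated, with no overlap and a log2 fold change of 1.27 (SE 0.334, edgeR adjusted p 0.00427). No iNOS KO library had more than 3.7 CPM of either kinase.

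Whether the response itself differed between genotypes was tested as the interaction of genotype and stimulation. It was called for 6 of 9 receptors, against 35.4% of all genes. The response of iNOS KO libraries was more positive than that of WT libraries for Mrc1 (log2 difference 1.85, SE 0.449, edgeR adjusted p 0.00365), Axl (1.83, SE 0.671, 0.0438), Cd36 (1.09, SE 0.263, 0.00343), Scarb1 (1.08, SE 0.112, 9.11e-07) and Stab1 (0.86, SE 0.112, 1.13e-05). It was smaller for Clec7a (-1.37, SE 0.228, 0.000144). Msr1 had a difference of -0.12 that did not pass the test (edgeR adjusted p 0.582), and Mertk did not pass either (0.937), whose unstimulated libraries held too few counts for a stable estimate. The Axl call was lost without any 1 of 6 of the 12 libraries (adjusted p up to 0.117). Without stimulated iNOS KO library B the count of called receptors was 6 again, with 1.37 for Cd36 and -1.17 for Clec7a.

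**Figure D3:**
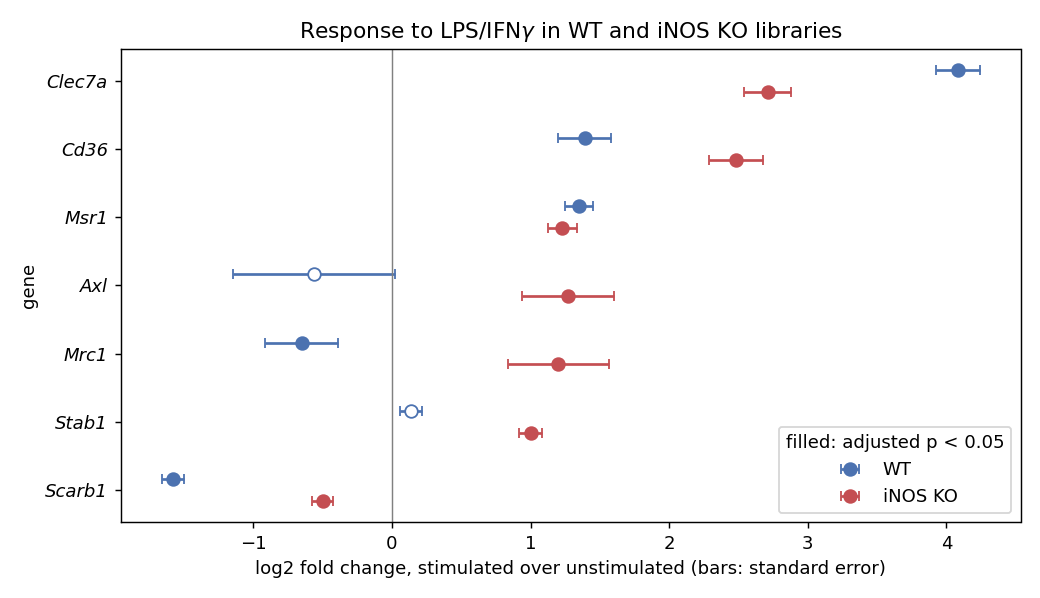
Log2 fold change on stimulation (x axis, with SE bars) of 7 receptors (y axis) in WT (blue) and iNOS KO (red) libraries labelled BMDM, filled where the edgeR adjusted p was under 0.05. Clec7a lies further right in WT (4.08 against 2.71), Cd36 further right in iNOS KO (2.48 against 1.39), Msr1 side by side (1.35 and 1.23), and Scarb1 left of 0 in both.

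iNOS KO and WT were next compared after stimulation, which asks how the receptors differ where WT cells make nitric oxide. Scarb1, Cd36 and Axl were higher in iNOS KO libraries, and Clec7a and Mertk were lower. These 5 of 9 tested stood against 48.4% of all genes called. Clec7a had 241.3, 249.3 and 253.1 CPM in WT and 40.1, 26.2 and 45.2 CPM in iNOS KO libraries, with no overlap and a log2 difference of -2.73 (SE 0.147, edgeR adjusted p 1.27e-10), or -2.54 without iNOS KO library B. Mertk, at 5.12, 6.01 and 6.59 CPM in WT and 0.9, 0.865 and 0.955 CPM in iNOS KO libraries, did not overlap either (-2.69, SE 0.293, edgeR adjusted p 7.74e-07). The other receptor kinase differed in the opposite direction. Axl had 0.485, 0.338 and 0.208 CPM in WT and 1.99, 3.39 and 3.7 CPM in iNOS KO libraries, all higher (log2 difference 3.11, SE 0.447, edgeR adjusted p 1.75e-05).

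Scarb1 was at 48.6, 50.5 and 50 CPM in stimulated WT and 95.4, 115.6 and 95.2 CPM in stimulated iNOS KO libraries. All iNOS KO libraries lay above the WT libraries, and the log2 difference was 1.04 (SE 0.0814, edgeR adjusted p 1.4e-08). Cd36 was at 939.2, 815.8 and 858.9 CPM against 1854, 933.3 and 2063 CPM. These groups overlapped, since iNOS KO library B lay below WT library A, and the log2 difference was 0.89 (SE 0.186, edgeR adjusted p 0.000715), or 1.17 without library B. Msr1 (-0.16, edgeR adjusted p 0.204), Stab1 (0.16, 0.105) and Marco did not pass the test. Mrc1 lay close to the threshold (-0.75, edgeR adjusted p 0.0539) and was called without WT library B (0.0132) or iNOS KO library A (0.0425).

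Unstimulated iNOS KO and WT libraries, where WT Nos2 was at most 1.53 CPM, differed in 3 of 9 receptors, all lower in iNOS KO, against 5.98% of all genes called. They were the lectins Mrc1 and Clec7a, and Stab1. Mrc1 had 3.39, 4.56 and 4.05 CPM in WT and 0.819, 0.498 and 0.634 CPM in iNOS KO libraries, a log2 difference of -2.60 (SE 0.309, edgeR adjusted p 3.73e-05). Clec7a had 14.9, 15.7 and 13.3 CPM against 5.87, 6.62 and 4.59 CPM (-1.36, SE 0.176, edgeR adjusted p 8.63e-05). Stab1 had 35.5, 37.1 and 35.5 CPM against 23, 22.1 and 21.5 CPM (-0.70, SE 0.0796, edgeR adjusted p 2.51e-05). None of the 3 overlapped between genotypes, and none of the calls was lost when any 1 of the 6 libraries was left out.

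Msr1 (log2 difference -0.04), Scarb1 (-0.04) and Cd36 (-0.20, edgeR adjusted p 0.654) did not pass the test in unstimulated libraries. Axl was at 0.349 to 0.646 CPM in WT and 0.586 to 1.73 CPM in iNOS KO libraries (1.29, edgeR adjusted p 0.102), and was called without iNOS KO library C (1.63, 0.023). Mertk had 10 counts in the WT and 2 in the iNOS KO group, a ratio of 0.18 with a 95% counting interval of 0.0191 to 0.843, which did not pass the test (edgeR adjusted p 0.211). The summed CPM of the 10 macrophage markers also differed between these groups, with 8567 to 8904 in WT and 6106 to 6491 in iNOS KO libraries unstimulated and 8704 to 9638 and 13084 to 13766 stimulated, and its part in the receptor differences was not tested. Pooling of marrow by genotype means that genotype and pool cannot be told apart where the label BMDM holds.

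**Figure D4:**
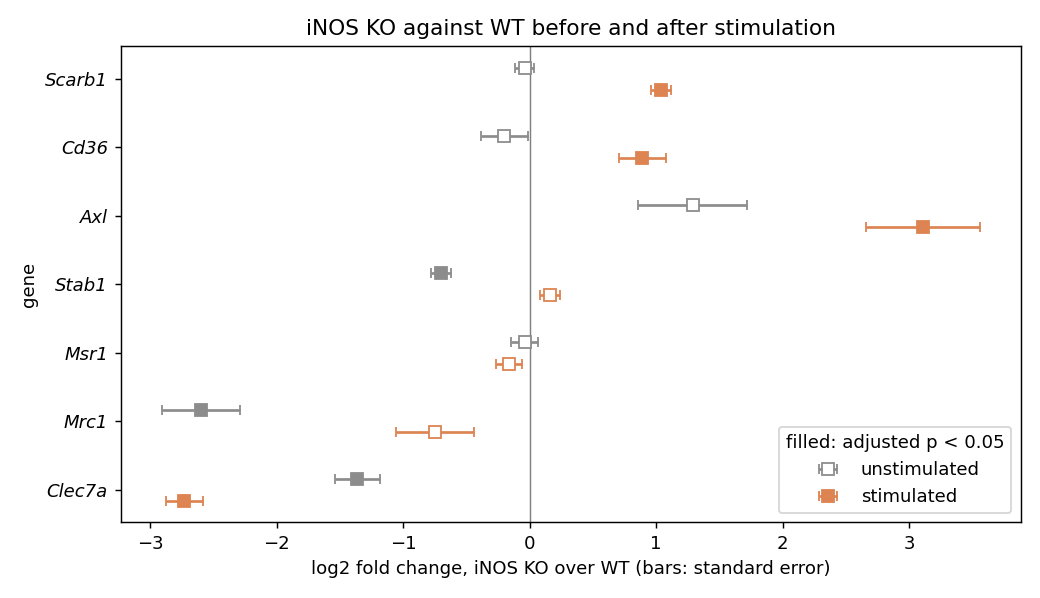
Log2 difference of iNOS KO from WT (x axis, with SE bars) for 7 receptors (y axis) in unstimulated (grey) and stimulated (orange) libraries labelled BMDM, filled where the edgeR adjusted p was under 0.05. Scarb1 and Cd36 lie near 0 unstimulated (-0.04 and -0.20) and right of 0 stimulated (1.04 and 0.89), Mrc1 lies at -2.60 unstimulated and -0.75 stimulated, and Clec7a is left of 0 in both.

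RAW264.7 cells were compared in the same way, with 2 libraries per group. In stimulated WT cells Msr1, Stab1, Cd36 and Mrc1 rose and Scarb1 and Clec7a fell, 6 of 7 receptors tested against 37.7% of all genes. Cd36 and Mrc1 passed the filter on counts through stimulated libraries, so that their direction on stimulation was set by it and the count of receptors is a description in both genotypes. Msr1 had 101.3 and 118.7 CPM unstimulated (A and B) and 950.4 and 503.7 CPM stimulated, with no overlap and a log2 fold change of 2.72 (SE 0.31, edgeR adjusted p 0.000258). Stab1 had 4.79 and 5.98 CPM unstimulated and 122.6 and 55.3 CPM stimulated. Its stimulated libraries differed widely but both lay above the unstimulated ones (4.02, SE 0.413, edgeR adjusted p 0.000149, or 3.41 without stimulated library A). Scarb1 had 213.3 and 184.7 CPM unstimulated and 86.1 and 71.7 CPM stimulated, lower in both (-1.33, SE 0.134, edgeR adjusted p 0.000132).

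Cd36, the leading receptor in the libraries labelled BMDM, had 0 and 3 counts in unstimulated WT RAW264.7 libraries and 172 and 501 counts (12.8 and 28.2 CPM) after stimulation. The ratio was 433.2 with a 95% counting interval of 147.6 to 2106 (edgeR adjusted p 0.000925). Mrc1 had 0 counts in both unstimulated libraries and 1 and 16 counts stimulated, at least 3.45-fold higher with 3 counts per library as the limit of 0. That call (edgeR adjusted p 0.0269) was lost without unstimulated library A, unstimulated library B or stimulated library B, with adjusted p up to 0.214. Clec7a had 6.61 and 22.5 CPM unstimulated and 0.669 and 2.31 CPM stimulated, a log2 fold change of -3.27 (SE 0.694, edgeR adjusted p 0.00636). This call was lost without unstimulated library B (-2.12, adjusted p 0.0569), the deepest library, and the value was -4.38 without stimulated library B and -2.59 without stimulated library A. Within each letter the stimulated level was 0.101 (A) and 0.103 (B) of the unstimulated level, lower in both.

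Akr1a1 KO cells gave 4 calls of 7 receptors on stimulation, against 39.2% of all genes: higher Msr1, Cd36 and Stab1 and lower Scarb1. Msr1 had 179.3 and 128 CPM unstimulated and 495.7 and 596.5 CPM stimulated (log2 fold change 1.83, SE 0.3, edgeR adjusted p 0.00164). Stab1 had 4.16 and 7.34 CPM against 68.9 and 60.6 CPM (3.45, SE 0.406, edgeR adjusted p 0.000284). Scarb1 had 95.4 and 96.5 CPM against 47.8 and 50.2 CPM (-0.97, SE 0.134, edgeR adjusted p 0.000667). In each of these genes both stimulated libraries lay on the same side of both unstimulated ones. Cd36 had 0 counts in both unstimulated libraries and 64 and 313 counts (4.29 and 19.7 CPM) stimulated, at least 70.4-fold higher (edgeR adjusted p 0.00129). Mrc1 had 0 and 2 counts against 10 and 14, a ratio of 16.1 with a 95% counting interval of 4.01 to 140.8 that did not pass the test (edgeR adjusted p 0.0542). Clec7a had 0.314 and 0.487 CPM against 0.737 and 0.628 CPM (0.69, edgeR adjusted p 0.558).

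**Figure D5:**
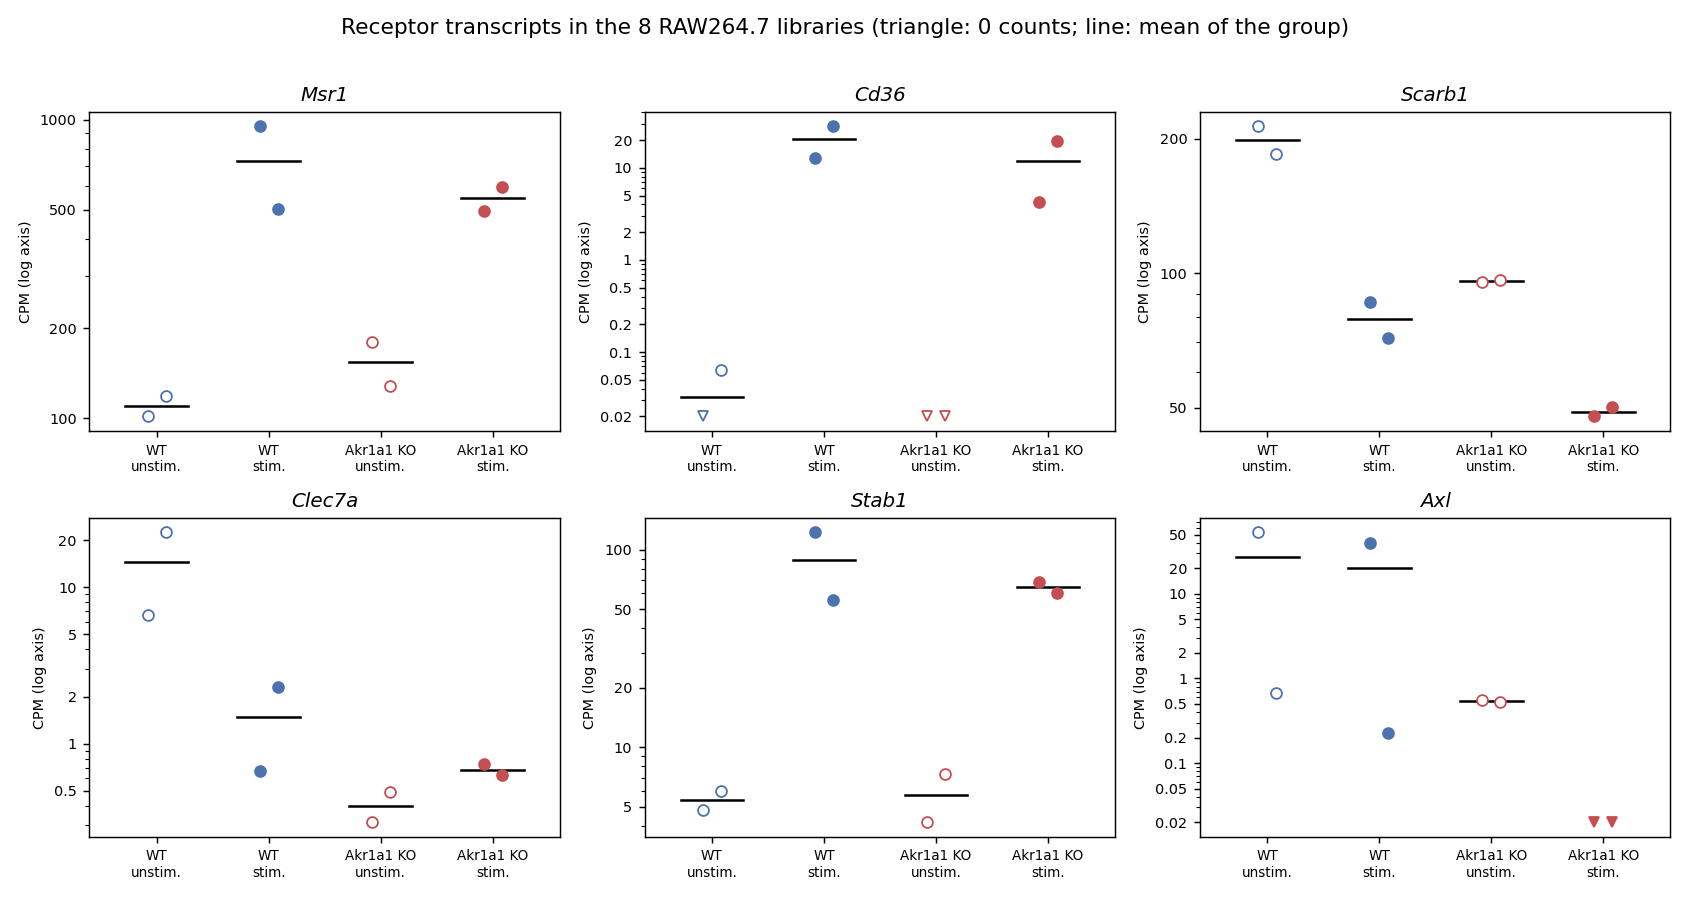
CPM (log axis) of 6 receptors in the 8 RAW264.7 libraries, 1 point per library, open for unstimulated and filled for stimulated, blue for WT and red for Akr1a1 KO, with a line at the mean of each group and triangles for libraries with 0 counts. Stimulated Msr1 sat at 495.7 to 950.4 CPM in both genotypes, and Axl reached its highest levels in WT library A, with 53.4 CPM unstimulated and 39.9 CPM stimulated.

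Differences between Akr1a1 KO and WT cells were few. With 2 clonal replicates per group, a difference between clones cannot be told apart from one between genotypes. After stimulation edgeR called 0 of 7 receptors, against 0.286% of all genes, with 2 at an unadjusted p under 0.05 (Scarb1, 0.000835, and Axl, 0.0352), and DESeq2 called 2. Scarb1 had 86.1 and 71.7 CPM in WT and 47.8 and 50.2 CPM in Akr1a1 KO libraries, lower in both, but the log2 difference of -0.69 had an edgeR adjusted p of 0.125. Axl had 39.9 and 0.225 CPM in WT and 0 counts in both Akr1a1 KO libraries. With 3 counts per library as the limit of 0 the group mean was at least 103.2-fold lower in Akr1a1 KO, which rested on WT library A, and the edgeR adjusted p was 0.409.

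Unstimulated, 2 of 7 receptors were called, both lower in Akr1a1 KO, against 0.583% of all genes. Scarb1 had 213.3 and 184.7 CPM in WT and 95.4 and 96.5 CPM in Akr1a1 KO libraries, with no overlap (-1.05, SE 0.133, edgeR adjusted p 0.017). Clec7a had 6.61 and 22.5 CPM against 0.314 and 0.487 CPM, also with no overlap (-5.11, SE 0.786, edgeR adjusted p 0.0348). Both calls were open to leaving out 1 library. Scarb1 was not called without any 1 of the 4 unstimulated libraries (adjusted p 0.0684 to 0.185), though its log2 difference stayed at -1.15 to -0.94. Clec7a was not called without 3 of the 4 (0.152 to 0.316). Without both unstimulated B libraries, whose titles disagree with their treatment, 0 receptors were called here and 4 on stimulation of WT cells. Axl had 53.4 and 0.666 CPM in WT and 0.55 and 0.522 CPM in Akr1a1 KO libraries, so that WT library A alone lay apart (edgeR adjusted p 0.636). The summed CPM of the 10 macrophage markers also differed between these groups, with 4715 to 5241 in WT and 3654 to 3839 in Akr1a1 KO libraries unstimulated and 12461 to 12800 and 5533 to 9509 stimulated, where Csf1r, the M-CSF receptor, was lower in Akr1a1 KO (-1.17, edgeR adjusted p 0.011). Their part in the receptor differences was not tested.

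The interaction of Akr1a1 KO and stimulation was called by edgeR for 0 of 7 receptors, against 0.0204% of all genes, with 1 at an unadjusted p under 0.05 (Clec7a, 0.00628) and 1 called by DESeq2. Marco and Cd163 had 0 counts in all 8 RAW264.7 libraries, where a count of 0 allows 0.0645 to 0.236 CPM, and Mertk had 7 counts in all.

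Genes that act beside these receptors were counted in lists fixed for this work, to be read against the shares of all genes in the libraries labelled BMDM. In both experiments some scarce genes of the lists passed the filter on counts mostly through stimulated libraries. Counts and medians of the lists on stimulation are therefore descriptions. On stimulation 32.4% of all genes rose and 28.5% fell in WT, and 27.3% rose and 24.6% fell in iNOS KO libraries. Between genotypes 24.2% were higher and 24.2% lower in iNOS KO stimulated, and 1.88% and 4.09% unstimulated. Of 16 other C-type lectins tested in WT libraries labelled BMDM, 14 rose and 1 fell on stimulation (median log2 fold change 2.63, against 0.07 over all genes), and 11 rose and 2 fell in iNOS KO libraries. Of the 19 lectins listed, 8 exceeded 1 CPM in unstimulated WT libraries and 11 to 12 in stimulated ones. Scarce members such as Clec9a (mean 0.144 CPM) passed the filter mostly through stimulated libraries, which set their direction. Clec2d rose by 6.3 in WT libraries. After stimulation 1 of the 16 was higher and 6 were lower in iNOS KO than in WT libraries (median -0.2, against -0.04 over all genes), in all a smaller share than the 48.4% of all genes, among them Clec4a1 (-2.37) and Clec4a2 (-1.14). The beta-glucan signalling list holds the macrophage marker Itgam beside genes that signal for Clec7a. It had 7 of 11 genes higher and 2 lower in stimulated WT libraries, led by Malt1 (3.54), Src (2.74) and Syk (2.45), and 11 of 11 higher in iNOS KO libraries. Between stimulated genotypes 3 were higher and 5 lower in iNOS KO, with Ptpn6, an inhibitory phosphatase, at 1.28, Malt1 at -1.02 and the kinase Syk at -0.95.

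Other scavenger receptors responded in both directions in WT libraries labelled BMDM, 5 higher and 2 lower of 12 tested (median -0.02), a share near the 60.9% of all genes. Olr1, a receptor for oxidised lipoprotein, rose by 5.38, Cxcl16 rose by 3.22 and Cd5l fell by 4.64 on the log2 scale. In iNOS KO libraries 4 rose and 3 fell. After stimulation 2 were higher and 7 lower in iNOS KO than in WT libraries (median -0.58, against -0.04 over all genes). Scarf1 had 34.1 to 36.7 CPM in WT and 0.239 to 1.51 CPM in iNOS KO libraries (-5.49, edgeR adjusted p 1.21e-11), and Olr1 had 67.7 to 82.5 CPM and 9.95 to 16.8 CPM (-2.56). Cd5l differed the other way (1.92).

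Among other apoptotic-cell receptors and bridging proteins, 11 rose and 6 fell of 20 tested in stimulated WT libraries labelled BMDM, and 10 rose and 7 fell in iNOS KO libraries, where 60.9% and 51.9% of all genes were called. Of the 22 listed, 14 exceeded 1 CPM in unstimulated and 16 in stimulated WT libraries, and 13 and 18 in iNOS KO libraries. C1qb passed the filter on counts through stimulated libraries only, which set its direction, and these counts are descriptions. After stimulation 6 were higher and 11 lower in iNOS KO (median -0.4). C1qb, a subunit of the opsonin C1q, had 0 counts in unstimulated libraries of both genotypes, 0.623 to 0.878 CPM in stimulated WT and 8.16 to 9.01 CPM in stimulated iNOS KO libraries (edgeR adjusted p 2.69e-08). Gas6, which bridges Axl and Mertk to dying cells, was at 62 to 67.3 CPM in unstimulated WT and 25.2 to 26.5 CPM in unstimulated iNOS KO libraries (-1.31, edgeR adjusted p 5.03e-08). The engulfment machinery had 9 genes higher and 2 lower of 14 in stimulated WT and 9 higher and 3 lower in stimulated iNOS KO libraries, and between stimulated genotypes 4 were higher and 4 lower, close to the 48.4% of all genes, led by Ucp2 at 1.41.

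The lipid handling list, for steps around lipid uptake, had 8 of 12 genes higher and 1 lower in stimulated WT libraries labelled BMDM (median 0.97). In stimulated iNOS KO libraries 11 were higher and 1 lower (0.84). Npc2, a cholesterol carrier of lysosomes, rose by 2.69, Acsl1 by 2.52 and Plin2, a coat protein of lipid droplets, by 2.19 in WT libraries. Between stimulated genotypes 4 were higher and 7 lower in iNOS KO, with Lpl at 1.21, the cholesterol exporter Abca1 at -1.17 and Soat1 at -0.76. Unstimulated, 1 was higher and 7 lower, led by Fabp4 (-2.05). Of the iron handling list, 7 of 10 rose and 2 fell in WT and 8 rose and 2 fell in iNOS KO libraries, and Hmox1, which degrades haem, differed by -1.29 between stimulated genotypes, with 3014 to 3371 CPM in WT and 1247 to 1414 CPM in iNOS KO libraries.

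Of 6 receptor sheddases and regulators of shedding, 2 rose and 2 fell in stimulated WT and 2 rose and 1 fell in stimulated iNOS KO libraries labelled BMDM. Mmp14, a membrane protease, had 14.3 to 15.3 CPM in unstimulated WT and 0.0481 to 0.293 CPM in unstimulated iNOS KO libraries (edgeR adjusted p 3.33e-10), and 38.2 to 46.9 against 10.6 to 13.3 CPM stimulated. Of 21 transcription factors linked to these receptors, 15 rose and 4 fell in stimulated WT and 15 rose and 3 fell in stimulated iNOS KO libraries. After stimulation 7 were higher and 11 lower in iNOS KO, with Klf4 at -3.13 and Pparg, a regulator of Cd36, at 1.43. Unstimulated, 0 were higher and 6 lower by edgeR. Maf, at 0.498 to 1.06 CPM in unstimulated WT, had 0 to 0.0498 CPM in unstimulated iNOS KO libraries and 32.8 to 47.4 CPM after stimulation.

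In RAW264.7 cells 8 of 13 other C-type lectins rose and 2 fell on stimulation of WT cells, and 6 rose and 2 fell in Akr1a1 KO cells. Of all genes 18.5% rose and 19.2% fell in WT and 19.8% rose and 19.4% fell in Akr1a1 KO cells. Other scavenger receptors rose in 2 of 13 cases (Colec12 by 1.74 and Lrp1 by 1.1) with 0 lower in WT cells, and 3 rose and 3 fell in Akr1a1 KO cells. The beta-glucan signalling list had 7 of 11 higher in both genotypes, with 0 lower in WT and 2 lower in Akr1a1 KO cells. Syk rose by 2.97 in WT and 3.21 in Akr1a1 KO cells. Lipid handling genes rose in 5 of 12 cases in both genotypes, with 3 lower in WT and 2 in Akr1a1 KO cells. Lpl, a lipase that releases fatty acids for uptake, fell by 4.2 in WT and 5.12 in Akr1a1 KO cells. Of the lists of partner genes, edgeR called 0 between stimulated Akr1a1 KO and WT cells, and between unstimulated cells Mfge8, a bridging protein, was higher (1.18, edgeR adjusted p 0.048) and Itgam of the beta-glucan list was lower (-2.25, 0.0417) in Akr1a1 KO.

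The genes with the most similar pattern over libraries were found by Pearson's r of log2 CPM, over 8567 well expressed protein-coding genes in 12 libraries labelled BMDM. These values are descriptions, since libraries of a group share their treatment and many genes follow it. Scarb1 was most like Gart (0.9982) and Ucp2 (0.9973), Msr1 most like Casp1 (0.9956) beside 9930111J21Rik2 (0.9958), Cd36 most like Nucb2 (0.9946) and Gk (0.9893), and Clec7a most like Soat1 (0.9947) and Rragc (0.9923). Mertk (Lonp2, 0.9916, and Tmem50a, 0.9887), Stab1 (Dram1, 0.9721, and Cmtm3, 0.9653), Axl (Med29, 0.927, and Slc25a22, 0.9247) and Mrc1 (Ptger4, 0.9219, and Prkar2b, 0.8277) followed. Over 8 RAW264.7 libraries and 8849 genes, the first gene was Xylt2 for Cd36 (0.9978), Wdr37 for Stab1 (0.9952), Tgfbr2 for Scarb1 (0.9952), Psen2 for Msr1 (0.9949), Irag2 for Axl (0.9594) and Rnpc3 for Clec7a (0.9537). No gene was the first or second match of the same receptor in both experiments.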

How the data were processed

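RNA was poly(A) enriched and sequenced in 20 libraries. According to the study's methods and processing notes, the authors used CASAVA for base calls, removed reads of poor quality and used STAR with mm10 before counting reads per gene. The tables deposited by the authors hold these raw counts as whole numbers for 56748 genes, without normalization. The counter, its strand setting, the annotation and version numbers are not given in the sources used here, so reads of overlapping or antisense genes could not be separated. The tables name no build, and of 52073 gene identifiers shared with GENCODE vM21 1485 had the same start, so positions from the tables are not printed and promoter coordinates belong to RefSeq alone.

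Libraries were grouped by the labels. Depth per library (15072109 to 18878107 counts in the iNOS experiment, 11876719 to 44583327 in the Akr1a1 experiment) sets the limits of 0 counts (3 counts a library) and the counting intervals (exact, 95%), both covering counting error only. A minimum of 10 counts over an experiment left 18691 and 19569 genes. After TMM scaling, a separate model for each experiment, with a mean for every group, was tested by the 2-sided quasi-likelihood test of edgeR 4.0.16 under R 4.3.3, with Benjamini-Hochberg adjustment over all genes tested and a threshold of 0.05. The fold change limit of the study was an alternative. CPM values use the TMM library sizes, and CPM per kb divides them by the gene length in the tables. The code was tested on simulated data. Plots used matplotlib 3.10.9 (Python 3.11.15).

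The members and lists were chosen with earlier results of these data known. The text names the 10 members, Nos2 and Akr1a1, at most 3 called genes per list and comparison (those with the largest absolute log2 fold change), and the 2 protein-coding genes most like each member with a mean of at least 1 CPM, among genes with a mean log2 CPM over 3 (prior count 2).

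Whether a shared replicate letter pairs libraries was checked by the correlation of deviations from group means. For iNOS KO cells, unstimulated and stimulated, it was 0.404, 0.497 and 0.121 for A, B and C, all over 0.1. The reported iNOS KO tests did not use this pairing, so their SEs and adjusted p-values are those of an unpaired fit. The blocked fit called the same 9 receptors there. In RAW264.7 cells the values across states were also over 0.1, at 0.438 in WT and 0.103 in Akr1a1 KO. The reported RAW264.7 tests did not use that pairing, and the blocked fit added a call for Mrc1 on stimulation of Akr1a1 KO cells. The methods speak of biological replicates, but the labels tie no library labelled BMDM to an animal or culture of its own, so p-values measure the spread between these libraries, which may be technical.

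Alternatives were DESeq2 1.42.0, its size factors in place of TMM, filterByExpr or no filter on counts, the replicate letter as a block, an absolute log2 fold change over 1, a fit of only the groups compared, and each library left out in turn. Leaving out both unstimulated RAW264.7 B libraries and crossing the letters of the Akr1a1 KO libraries were chosen after seeing the data. The proteomic and functional measurements of the study were not used here.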

Additional observations from a re-analysis of the deposited data

Results flagged for a closer look

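In all, 6 receptors responded differently to stimulation in iNOS KO and WT libraries labelled BMDM by a test of the difference itself (the interaction in edgeR). The log2 difference of the responses was 1.85 for Mrc1, 1.83 for Axl, 1.09 for Cd36, 1.08 for Scarb1, 0.86 for Stab1 and -1.37 for Clec7a. Unstimulated iNOS KO libraries were already lower for Mrc1 (-2.6), Clec7a (-1.36) and Stab1 (-0.7), while Axl, Cd36 and Scarb1 were not called there. Between stimulated genotypes Mrc1 (edgeR adjusted p 0.0539) and Stab1 (0.105) did not pass the test, while Clec7a, Axl, Cd36 and Scarb1 did. Axl was not called with the replicate block (adjusted p 0.0536), which left 5 receptors, nor without any 1 of 6 of the 12 libraries (adjusted p up to 0.117). For Cd36 and Clec7a the values without stimulated iNOS KO library B were 1.37 and -1.17, and the part of that library's difference from its mates was not tested.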

How the results depend on the processing

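The counts of called receptors kept within 1.5 times their reported value in the libraries labelled BMDM, except that a fit of only the 2 groups compared called 5 in place of 3 between unstimulated genotypes, adding Cd36 (-0.17, adjusted p 0.0371) and Axl (1.31, 0.0363). In RAW264.7 cells the comparison of stimulated genotypes gave 2 calls with DESeq2 and 2 with no filter in place of 0, that of unstimulated genotypes gave 1 with filterByExpr, 1 with only the 2 groups, 0 to 1 with 1 library left out and 0 without both unstimulated B libraries in place of 2, and the interaction gave 1 with DESeq2 and 3 with no filter in place of 0. With 1 library left out the counts ranged from 5 to 7, 8 to 9, 5 to 6, 3 to 4 and 5 to 6 in the iNOS experiment (stimulation of WT, stimulation of iNOS KO, stimulated genotypes, unstimulated genotypes, interaction), and from 4 to 6, 4 to 4, 0 to 0, 0 to 1 and 0 to 0 in the same order in RAW264.7 cells. Among single-gene values with 1 library left out in the iNOS experiment, 307 kept their direction and side of the threshold, 6 gained and 11 lost a call. In RAW264.7 cells 157 kept theirs and 11 lost a call. No value called in the reported fit turned its direction. The cause of these changes was not tested.

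With the replicate block, Axl lost its call in the iNOS interaction (1.84, adjusted p 0.0536), which left 5 receptors, and Mrc1 gained one on stimulation of Akr1a1 KO cells (4.39, adjusted p 0.0375), which made 5. No other call changed. Outside the iNOS KO pair, same letters deviated together by -0.132, -0.258 and 0.0844 in WT, 0.46, 0.387 and -0.146 between stimulated and -0.104, -0.343 and -0.0277 between unstimulated genotypes, so that these libraries share only a letter. In RAW264.7 cells, with 2 letters, the correlation was 0.438 in WT, 0.103 in Akr1a1 KO and -0.165 between unstimulated genotypes. The WT and Akr1a1 KO values also passed the limit of 0.1, and the methods call A and B independent clonal replicates. The reported tests of both experiments did not use pairing by letter, which the blocked fit above does. Crossing the letters of the Akr1a1 KO libraries, chosen after seeing the data, gave 6, 4, 0, 2 and 0 calls. Depth limits Marco, Cd163, Mertk and Mrc1 in both experiments, and Axl in the libraries labelled BMDM, where their counts were lowest. In RAW264.7 cells Axl had 1329 counts in all, more than Clec7a (1226) or Cd36 (1053). Its WT libraries A and B there differed widely, with 735 and 31 counts unstimulated and 537 and 4 stimulated.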
